A study of Mus musculus with 3 samples.

Results

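The genes described here take up, carry, store and release fatty acids, and they were chosen by name: Lpl, Angptl4, Cd36, Fabp4, Apoe, Plin2, Plin4, Pnpla2 and Lipe, 9 protein-coding genes of the 56748 genes listed in the count table. All 9 were found, and all reached 1 CPM, a count scaled to library size, in at least 1 library, as did 13712 genes in all. They were measured by RNA sequencing in 3 libraries of visceral adipose fibroblasts, taken from WT mice on a high-fat diet (HFD). The fibroblasts were the cells of the stromal vascular fraction that remained after magnetic depletion of CD45, CD31 and Ter119 positive cells. The cells of the first library had received recombinant mouse oncostatin M (Osm) at 3 ng/mL for 24 h and those of the next recombinant human TGF-beta1 at 3 ng/mL for 24 h, while the library of the control treatment is titled vehicle, with no time stated. No source used here gives the age or sex of the mice, or says whether cells of several mice were pooled. Each condition had 1 library, so no spread between cultures could be measured, no test was possible, and the intervals below, exact ones at 95%, hold the error of counting and no other.

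Fat cells and their precursors take fatty acids from circulating lipoproteins through lipoprotein lipase, and inhibitors of the angiopoietin-like family restrain that enzyme. Fatty acids enter with the help of membrane transporters, travel bound to small carrier proteins and are stored as triglyceride in droplets coated by perilipins. Lipases on the droplet surface release them again. Several genes of this system are classical targets of Pparg, the nuclear receptor that drives fat cell formation.

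With TGF-beta1, 4 of the 9 genes were at least 2-fold lower than with vehicle, namely Plin4, Apoe, Lpl and Cd36, where 4.79% of all genes tested were. None of the 9 was at least 2-fold higher, where 2.27% of all genes were. The 9 were chosen with earlier results of these data known, so their share beside that of all genes is a description only. The lipase genes fell short of 2-fold, with Pnpla2 1.13-fold higher (1.02 to 1.25) and Lipe 1.54-fold lower (1.24 to 1.94). With Osm, none of the 9 genes was 2-fold higher or lower than with vehicle, where 0.948% and 0.649% of all genes were. The highest ratio among the 9 was that of Angptl4, at 1.56 (1.40 to 1.74). The lowest was that of Cd36, the scarcest of the 9, which was 1.86-fold lower (1.24 to 2.83). In bulk libraries, fewer cells expressing a gene and less RNA per cell cannot be told apart. A gene was counted as 2-fold higher or lower where the log2 ratio of its CPM was at least 1 in size and the counting interval of the ratio excluded 1.

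The promoters of Plin4, Apoe and Plin2 (RefSeq, build GRCm38.p6) are shown as examples from genes that were lower with TGF-beta1 than with vehicle (Plin2 by less than 2-fold), and they were picked among windows that hold the letters CAGAC. A window of Lipe that holds them on the opposite strand is not shown, and the other 2 windows of Apoe hold none. For each window shown, the bases after the start site also stand in a GENCODE M21 transcript of the gene. Each line holds the 250 bases before the start site, 5′ to 3′ on the gene's strand, which is the minus strand for all 3. Capitals mark CAGAC, the core letters that Smad proteins, the transducers of TGF-beta signals, are known to recognise.
Plin4 (chr17:56109783-56110032): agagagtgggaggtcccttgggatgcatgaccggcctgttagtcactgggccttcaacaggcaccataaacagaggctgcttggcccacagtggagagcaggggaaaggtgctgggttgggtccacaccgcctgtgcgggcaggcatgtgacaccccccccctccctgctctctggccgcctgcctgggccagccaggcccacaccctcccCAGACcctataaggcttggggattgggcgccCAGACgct
Apoe (chr7:19699189-19699438, the most upstream of 3 start sites): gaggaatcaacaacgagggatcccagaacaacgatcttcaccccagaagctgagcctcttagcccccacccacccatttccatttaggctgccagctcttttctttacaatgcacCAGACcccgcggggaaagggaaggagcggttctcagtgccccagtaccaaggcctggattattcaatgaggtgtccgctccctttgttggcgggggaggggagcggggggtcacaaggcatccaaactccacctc
Plin2 (chr4:86670060-86670309): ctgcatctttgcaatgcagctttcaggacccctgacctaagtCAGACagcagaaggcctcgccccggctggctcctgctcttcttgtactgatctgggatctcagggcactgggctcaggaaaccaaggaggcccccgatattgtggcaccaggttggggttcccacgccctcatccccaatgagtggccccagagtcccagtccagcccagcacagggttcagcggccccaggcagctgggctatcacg

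RefSeq promoters were found for 6 of the 9 genes, Cd36, Apoe, Plin2, Plin4, Pnpla2 and Lipe, in 9 windows. CAGAC was searched on both strands and occurred in 5 of the 9 windows, in those of Plin4, Apoe, Plin2, Cd36 and Lipe. It also occurred in 42.2% of all 32851 promoter windows of this length, which makes it a common run of letters. In Plin4 the first base of the match lay 39 and 8 bases before the start, in Apoe 135 and in Plin2 208. The longer Smad element GTCTAGAC (0.167% of all windows), the direct repeat DR1 to which Ppar receptors bind (0.0335%) and the Stat element TTCNNNGAA (7.02%) were in none of the 9 windows. CANNTG, the E-box, was in 7 of the 9 and in 66.2% of all. CANNTG and TTCNNNGAA read the same on either strand, as does GTCTAGAC, and no motif searched here contains another.

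The libraries were of like depth, with 17319872, 18533741 and 18336068 counts for Osm, TGF-beta1 and vehicle. A gene with no count could still be at up to 0.173, 0.163 and 0.163 CPM in them. Fibroblast markers were abundant: all 12 passed 1 CPM, with summed levels of 20304, 22808 and 19943 CPM in the Osm, TGF-beta1 and vehicle libraries. With TGF-beta1, 2 of them were at least 2-fold lower than with vehicle, Dcn (2.41-fold, 2.36 to 2.45) and Fbln1 (3.45-fold, 3.22 to 3.68), and 1 was higher, Pi16 (4.396-fold, 3.89 to 4.99), while Pdgfra was 1.62-fold lower (1.58 to 1.65). Mature adipocyte markers were at or near 0. Their summed level over 13 genes was 0.864, 0.597 and 0.706 CPM, no marker reached 1 CPM, and Plin1, Cfd, Lep, Pck1 and Thrsp had no count in any library. Leukocyte markers, which matter for Apoe, Lpl, Cd36 and Fabp4 because macrophages express them too, summed to 21.9, 18.2 and 25.1 CPM over 17 genes, mostly Csf1r (overlapped by Hmgxb3 and so uncertain), Cd68 and Cd14. Adgre1, which marks macrophages, had 0, 1 and 0 counts, Ptprc had 2, 0 and 0, and Itgam, Fcgr1 and Cd3e had none in any library. Endothelial markers, relevant to Cd36 and Fabp4, summed to 47.0, 38.9 and 58.1 CPM over 12 genes, of which Tek made up 38.9, 34.4 and 48.5 CPM, and Tie1, Cldn5 and Gpihbp1 had no count. With TGF-beta1 Cd68 was 2.42-fold lower (1.81 to 3.25), Vwf 3.94-fold lower (2.60 to 6.14) and Cdh5 2.45-fold lower (1.08 to 6.04), all under 10 CPM. The median log2 ratio with TGF-beta1 was -0.66 over the 4 leukocyte markers tested, of which 1 lay above 0. Over the 4 endothelial markers tested it was -1.03, with none above 0. Mural markers summed to 1439, 1443 and 1465 CPM, nearly all of it Pdgfrb, which fibroblasts share. Below that sum, Cspg4 was at 7.38, 74.9 and 8.53 CPM in the Osm, TGF-beta1 and vehicle libraries, 8.77-fold higher with TGF-beta1 than with vehicle (7.43 to 10.4), and Abcc9 was 2.47-fold lower (1.62 to 3.85). Mesothelial markers summed to 5.94, 8.79 and 6.74 CPM, with Upk1b and Krt19 at least 2-fold higher with TGF-beta1, and the 7 erythroid markers had no count. With Osm no marker of these lists passed the 2-fold rule. The part of these cell types in the results was not tested.

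Lipoprotein lipase was the most abundant of the 9 in counts. Lpl, which encodes the enzyme that frees fatty acids from lipoprotein triglyceride (ENSMUSG00000015568, chromosome 8, 69333143 to 69360100, in mm39 as are all gene positions here), had 1503 CPM with Osm (26091 counts), 570.6 CPM with TGF-beta1 (10517 counts) and 1523 CPM with vehicle (28030 counts). TGF-beta1 thus stood apart while the Osm and vehicle values were nearly equal. Lpl was 2.67-fold lower with TGF-beta1 than with vehicle (2.61 to 2.73) and 2.64-fold higher with Osm than with TGF-beta1 (2.58 to 2.70). Osm over vehicle gave a ratio of 0.987 (0.9705 to 1.00), an interval that includes 1. In all mouse transcripts of GENCODE M21, 4.11% of the 50-base windows of Lpl recur in other genes.

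Angptl4 encodes a secreted inhibitor of lipoprotein lipase (ENSMUSG00000002289, chromosome 17, 33992724 to 34000804). It was at 47.6 CPM with Osm, 36.7 CPM with TGF-beta1 and 30.4 CPM with vehicle, so that vehicle was the lowest of the 3. The ratio to vehicle was 1.56 with Osm (1.40 to 1.74) and 1.21 with TGF-beta1 (1.08 to 1.35), both short of 2-fold. Osm over TGF-beta1 gave 1.30 (1.17 to 1.44). Among the 9201 genes that reached 10 CPM in the Osm or vehicle library, Angptl4 held position 21 from the highest Osm ratio.

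Cd36, a membrane protein that binds and takes in long-chain fatty acids (ENSMUSG00000002944, chromosome 5, 17986688 to 18093799), was the scarcest. It had 38 counts with Osm, 34 with TGF-beta1 and 75 with vehicle, which is 2.19, 1.84 and 4.08 CPM. Vehicle was the highest and the treated libraries lay close together, with an Osm over TGF-beta1 ratio of 1.19 (0.728 to 1.94). Cd36 was 2.21-fold lower with TGF-beta1 than with vehicle (1.45 to 3.42), and 1.86-fold lower with Osm (1.24 to 2.83). Both intervals run across 2-fold, so at this depth the side of the threshold on which each falls is not settled by the counts.

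Fabp4, an intracellular carrier of fatty acids that is abundant in adipocytes (ENSMUSG00000062515, chromosome 3, 10269148 to 10273636), was at 22.0 CPM with Osm, 12.9 CPM with TGF-beta1 and 21.8 CPM with vehicle. It was 1.70-fold lower with TGF-beta1 than with vehicle (1.44 to 2.00), short of the threshold, which the end of the interval just reached. The Osm over vehicle ratio of Fabp4 was 1.00 (0.871 to 1.16). Its relative Fabp5 was at 26.0, 32.4 and 28.7 CPM in the Osm, TGF-beta1 and vehicle libraries, but 21.1% of its windows recur in other genes, mainly Fabp5-like copies, so its value is uncertain.

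Apoe, the apolipoprotein that is a ligand of lipoprotein receptors and takes up cellular cholesterol (ENSMUSG00000002985, chromosome 7, 19430034 to 19433113), was at 349.2 CPM with Osm (6060 counts), 92.9 CPM with TGF-beta1 (1713 counts) and 397.5 CPM with vehicle (7315 counts). The TGF-beta1 library was again far below the other 2. The log2 ratio of TGF-beta1 to vehicle was -2.10, and Apoe held position 31 from the lowest among the 9273 genes that reached 10 CPM in one of the 2 libraries. With Osm it was 1.14-fold lower than with vehicle (1.10 to 1.18), and it was 3.76-fold higher with Osm than with TGF-beta1 (3.56 to 3.97). None of its 50-base windows recurs in another gene.

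**Figure D1:**
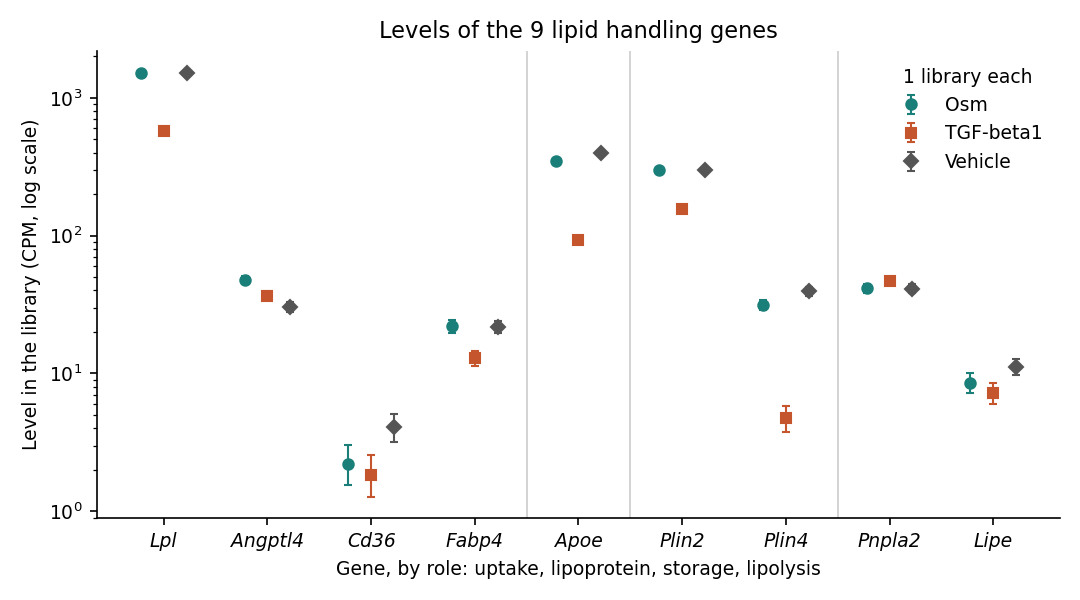
Level of each of the 9 genes in the Osm, TGF-beta1 and vehicle libraries, in CPM on a log axis, with exact Poisson 95% intervals of the counts (often smaller than the symbol). Heights should be compared within a gene, since CPM is not divided by gene length. Lpl, Fabp4, Apoe, Plin2 and Plin4 show the TGF-beta1 library below the other 2 with intervals apart, while Pnpla2 lies between 41.3 and 46.7 CPM in all 3.

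The droplet coat genes differed in extent. Plin2 encodes the perilipin found on droplets of most cell types (ENSMUSG00000028494, chromosome 4, 86566623 to 86588297), and it was at 297.2 CPM with Osm, 156.5 CPM with TGF-beta1 and 297.2 CPM with vehicle. Its Osm and vehicle values did not differ beyond counting error (ratio 1.00, 0.963 to 1.04). With TGF-beta1 it was 1.90-fold lower than with vehicle (1.82 to 1.99), the nearest of the 9 to the threshold from outside, while Cd36 was the nearest from inside. A pseudogene, Gm12551, shares 4.89% of the windows of Plin2 and had no count in any library.

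Plin4, a perilipin known from small and nascent droplets in white adipocytes (ENSMUSG00000002831, chromosome 17, 56407591 to 56416803), was at 31.5 CPM with Osm (547 counts), 4.72 CPM with TGF-beta1 (87 counts) and 39.4 CPM with vehicle (725 counts). The TGF-beta1 library stood alone at the low end. The log2 ratio of TGF-beta1 to vehicle was -3.05, position 3 from the lowest among the same 9273 genes. With Osm Plin4 was 1.25-fold lower than with vehicle (1.12 to 1.40), and it was 6.68-fold higher with Osm than with TGF-beta1 (5.32 to 8.47). Hdgfl2 lies on the opposite strand and was at 45.8, 40.3 and 43.1 CPM in the Osm, TGF-beta1 and vehicle libraries. In the deposited coordinates the 2 genes share 17 bases, and in GENCODE M21 their exons share 17 bases, or 0.294% of the exon bases of Plin4. No source used here says whether reads were counted by strand.

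Of the lipases, Pnpla2, which encodes adipose triglyceride lipase, the enzyme of the first step of triglyceride breakdown (ENSMUSG00000025509, chromosome 7, 141035111 to 141040656), was at 41.4 CPM with Osm, 46.7 CPM with TGF-beta1 and 41.3 CPM with vehicle. TGF-beta1 gave the highest value, by 1.13-fold over vehicle, and the Osm ratio was 1.00 (0.905 to 1.11). Lipe, the hormone-sensitive lipase gene, whose enzyme acts next (ENSMUSG00000003123, chromosome 7, 25078952 to 25098135), was at 8.59 CPM with Osm, 7.22 CPM with TGF-beta1 and 11.1 CPM with vehicle. Both treated libraries were below vehicle, by 1.30-fold with Osm (1.05 to 1.61) and 1.54-fold with TGF-beta1, and Osm over TGF-beta1 gave 1.19 (0.936 to 1.51). The antisense gene 4732471J01Rik spans Lipe and had 13, 3 and 9 counts in the Osm, TGF-beta1 and vehicle libraries, against 149, 133 and 205 for Lipe. In GENCODE M21 their exons share 918 bases, or 15.6% of the exon bases of Lipe.

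**Figure D2:**
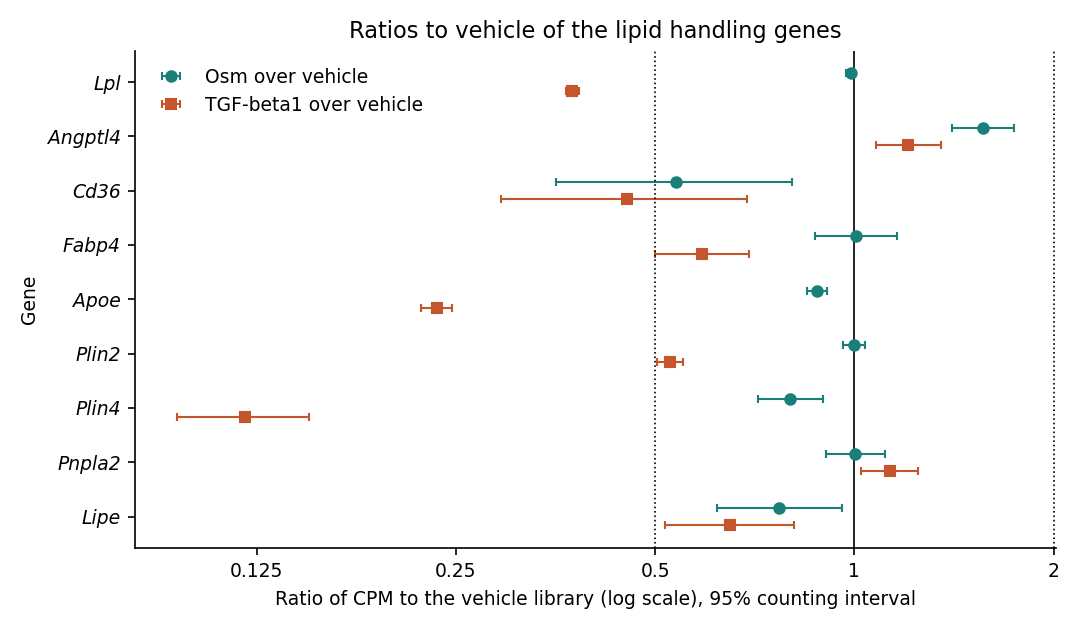
Ratio of CPM to the vehicle library for each gene, Osm above and TGF-beta1 below within a row, on a log axis with 95% counting intervals; the solid line marks a ratio of 1 and the dotted lines 2-fold. With TGF-beta1, Plin4, Apoe, Lpl and Cd36 lie left of the lower dotted line, and with Osm all 9 lie between the dotted lines.

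Among the 8 of the 9 genes that reached 10 CPM with TGF-beta1 or vehicle, which leaves out Cd36, 3 were at least 2-fold lower with TGF-beta1, against 2.37% of all genes at that level. The median log2 ratio of the 9 was -0.93 and that of all genes tested 0.01. The counting interval lay below 1 for 7 of the 9, as for 24.2% of all genes, and above 1 for Angptl4 and Pnpla2, as for 27.8% of all genes. With Osm the median of the 9 was -0.02 beside 0.00 for all genes. The Osm interval lay above 1 for Angptl4 (10.9% of all genes) and below 1 for Cd36, Apoe, Plin4 and Lipe (10.6% of all genes). Set directly against TGF-beta1, Osm gave 3 of the 9 at least 2-fold higher, Lpl, Apoe and Plin4, where 5.07% of all genes were, and none at least 2-fold lower, where 2.42% were. That interval lay above 1 for 6 of the 9 (24.6% of all genes) and below 1 for Pnpla2 (26.6%), and the median of the 9 was 0.77 beside -0.01. An interval excludes 1 more readily in a gene with more counts, and Lpl, Apoe and Plin2 were among the more abundant genes. No share of all genes at a matched level is given for the intervals. The comparisons share libraries, so they are not independent of each other. Since the 9 were chosen with earlier results of these data known, the shares and medians beside those of all genes are a description only.

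For sums by role, the uptake genes Lpl, Cd36 and Fabp4 were grouped with Angptl4, which encodes an inhibitor of lipoprotein lipase. Together they were at 1575 CPM with Osm, 622.0 CPM with TGF-beta1 and 1579.6 CPM with vehicle, most of it Lpl. The droplet coat genes summed to 328.7, 161.2 and 336.6 CPM and the lipases to 50.02, 53.9 and 52.4 CPM in the same order of libraries. The intervals of the lipase sums overlapped in all 3 libraries (46.7 to 53.5, 50.6 to 57.4 and 49.2 to 55.9 CPM). The uptake and coat sums were thus lower in the TGF-beta1 library while the lipase sum, most of it Pnpla2, was not. Not every member followed its sum. Angptl4 was 1.21-fold higher with TGF-beta1 than with vehicle (1.08 to 1.35), and Lipe was 1.54-fold lower (1.24 to 1.94).

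Ratios between partners within a library do not depend on the scaling between libraries, though their size depends on the gene lengths used. Per length, Lpl stood to its inhibitor Angptl4 at 10.7 with Osm (9.96 to 11.5), 5.25 with TGF-beta1 (4.86 to 5.68) and 16.9 with vehicle (15.6 to 18.4). All 3 intervals were apart. With Osm the lower ratio came with a higher Angptl4 level and nearly the same Lpl level, and with TGF-beta1 it came with a lower Lpl level and a 1.21-fold higher Angptl4 level (1.08 to 1.35). Plin2 stood to Plin4 at 17.05 with Osm (15.6 to 18.7), 59.9 with TGF-beta1 (48.4 to 75.1) and 13.6 with vehicle (12.6 to 14.8). Plin2 stood to Pnpla2, coat to lipase, at 6.17 with Osm (5.70 to 6.68), 2.88 with TGF-beta1 (2.67 to 3.11) and 6.19 with vehicle (5.73 to 6.68), so that the TGF-beta1 interval lay below both others and those overlapped. Pnpla2 stood to Lipe at 9.40 with Osm (7.87 to 11.3), 12.6 with TGF-beta1 (10.5 to 15.3) and 7.23 with vehicle (6.18 to 8.47), with the Osm interval overlapping both others.

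**Figure D3:**
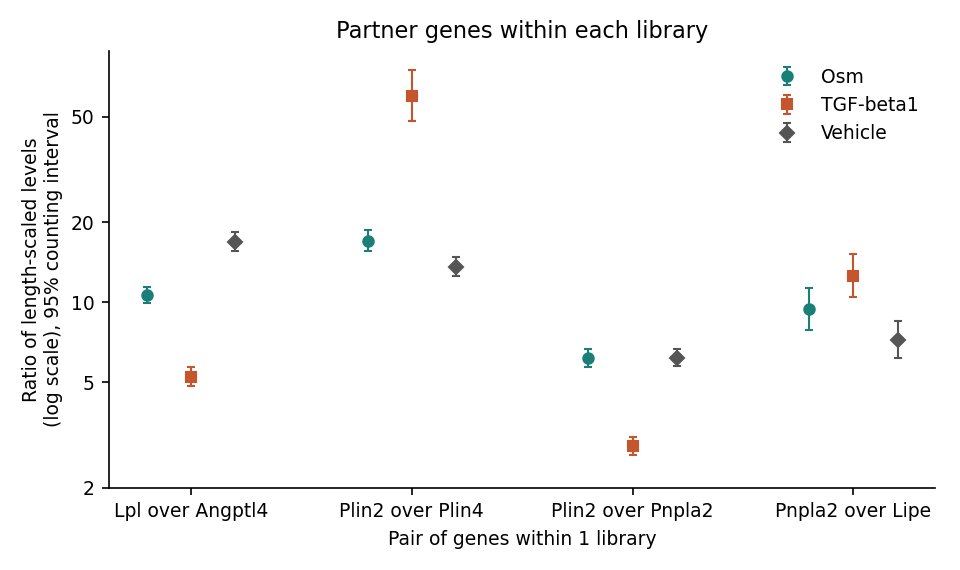
Ratio of length-scaled levels of partner genes within each library, on a log axis with 95% counting intervals. The TGF-beta1 library has the lowest Lpl over Angptl4 ratio (5.25) and the highest Plin2 over Plin4 ratio (59.9), and the Osm and vehicle ratios of Plin2 over Pnpla2 overlap.

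Between genes, levels were compared by the authors' FPKM, which divides by gene length. With vehicle the order was Apoe (186.0 FPKM), Lpl (145.5), Plin2 (84.7), Pnpla2 (13.7), Angptl4 (8.60), Plin4 (6.21), Fabp4 (4.87), Lipe (1.89) and Cd36 (1.14), and no neighbours overlapped in counting error. Apoe, Lpl and Plin2 were above 98.7%, 98.1% and 96.2% of all genes tested, and Plin4 above 55.3% (14.6% with TGF-beta1). With Osm the order was the same except that Pnpla2 (13.7 FPKM) and Angptl4 (13.4), and likewise Plin4 (4.95) and Fabp4 (4.87), did not differ beyond counting error. With TGF-beta1 Lpl led (54.6 FPKM), followed by Plin2 (44.6) and Apoe (43.6), which did not differ beyond counting error, and by Pnpla2 (15.5), Angptl4 (10.4), Fabp4 (2.87), Lipe (1.23), Plin4 (0.745) and Cd36 (0.515), of which the last 2 did not differ either. The order rests on the gene lengths in the deposited table. Those are 10478 bases for Lpl, 2138 for Apoe and 4489 for Fabp4, the last equal to the whole genomic span of the gene, introns included, whereas the longest protein-coding transcripts in GENCODE M21 have 4115, 1408 and 896 bases. With those transcript lengths, a choice made after the values were seen, Lpl was above Apoe with vehicle (370.4 against 282.5 CPM per kb) and Fabp4 (24.4) above Pnpla2 (15.7). Ratios between libraries do not depend on gene length.

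The wider system was described by 7 other lists, which hold none of the 9. Of their 146 distinct symbols, 142 were found and 105 tested. With TGF-beta1, 2 of the 105 passed the 2-fold rule upward and 6 downward, that is 1.90% and 5.71%, close to the 2.27% and 4.79% of all genes. With Osm, none was higher and 2 were lower (1.90%), among them Lcat, which was under 2 CPM in every library and is named after its values were seen.

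Among 7 measured lipid droplet proteins, 1 was at least 2-fold lower with TGF-beta1 and none higher, with a median log2 ratio of -0.44. That was G0s2, the protein inhibitor of adipose triglyceride lipase, at 25.3 CPM with Osm, 12.8 CPM with TGF-beta1 and 31.4 CPM with vehicle, 2.45-fold lower with TGF-beta1 (2.11 to 2.87). The perilipin Plin3 was at 93.0, 66.6 and 90.3 CPM, and the droplet-associated GTPase gene Rab18 at 166.0, 162.5 and 173.5 CPM in the same order of libraries. Plin1 and Plin5, the perilipins of adipocytes and of oxidative tissues, had no count, and neither did Fitm1. With Osm none of the 7 passed the rule (median -0.05).

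In the uptake list, 1 of 18 was at least 2-fold higher with TGF-beta1 and none lower, with a median of 0.03. The higher gene, Angptl8, is a relative of Angptl4 in the angiopoietin-like family, which holds inhibitors of lipoprotein lipase. It was at 5.82 CPM with Osm, 9.49 CPM with TGF-beta1 and 4.35 CPM with vehicle, 2.18-fold higher with TGF-beta1 (1.67 to 2.88). But Dock6, on the other strand of the same stretch, was at 35.3, 39.7 and 38.0 CPM, so the value of Angptl8 is uncertain. The fatty acid transporter gene Slc27a1 was 2.00-fold lower (1.61 to 2.48) with a log2 ratio of -0.99, just short of the rule. The lipoprotein receptor gene Lrp1 (9459.8, 8105 and 8937 CPM with Osm, TGF-beta1 and vehicle) stayed within 2-fold. Gpihbp1, which carries lipoprotein lipase across the capillary wall, had no count.

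Among 15 lipolysis genes, 1 was at least 2-fold higher with TGF-beta1 and 2 lower, with a median of -0.10. Mgll, which encodes the lipase of the last step, was at 6.68 CPM with Osm, 16.3 CPM with TGF-beta1 and 7.12 CPM with vehicle, 2.29-fold higher with TGF-beta1 (1.86 to 2.83). The lower genes were G0s2 and Prkar2b, a regulatory subunit of protein kinase A, which was 2.19-fold lower (1.91 to 2.52) and is named after its values were seen. The lysosomal acid lipase gene Lipa was at 149.4, 111.1 and 146.2 CPM, and Pnpla8 at 97.6, 96.2 and 103.3 CPM with Osm, TGF-beta1 and vehicle. The beta-adrenergic receptor gene Adrb3, through which lipolysis is switched on in adipocytes, had 2, 6 and 1 counts.

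None of 19 genes of fatty acid activation and triglyceride synthesis and none of 24 genes of fatty acid oxidation passed the rule with either ligand. Their medians with TGF-beta1 were -0.11 and -0.05 and with Osm 0.07 and -0.01. Among them Gpat3, an acyltransferase of glycerolipid synthesis, was 1.70-fold higher with TGF-beta1 (1.35 to 2.14), with 19.5% of its windows found in other genes, and Ucp2 1.55-fold higher (1.34 to 1.79), while the thiolase gene Acaa2 was 1.49-fold lower (1.30 to 1.70). Cpt1a, which admits fatty acids to mitochondria, was at 142.2, 116.4 and 147.9 CPM and the long-chain acyl-CoA synthetase gene Acsl4 at 229.8, 229.5 and 218.6 CPM with Osm, TGF-beta1 and vehicle.

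Of 15 genes of cholesterol efflux and apolipoproteins, 1 was at least 2-fold lower with TGF-beta1 and none higher, but the median log2 ratio was -0.60 and only Soat2, named after its values were seen, had a log2 ratio above 0 (0.04). Apod was 2.47-fold lower (1.797 to 3.43), at 4.90, 3.04 and 7.50 CPM with Osm, TGF-beta1 and vehicle. Abca1, the cholesterol exporter, was at 770.2 CPM with Osm, 395.4 CPM with TGF-beta1 and 714.5 CPM with vehicle, 1.81-fold lower with TGF-beta1 (1.76 to 1.86). Npc2, a carrier of cholesterol in lysosomes, was at 968.3, 750.1 and 1018 CPM. With Osm the median was -0.07.

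The Ppar list had 3 of 17 genes at least 2-fold lower with TGF-beta1 and none higher, with a median of -0.34. Pparg itself was at 20.2 CPM with Osm, 11.01 CPM with TGF-beta1 and 25.5 CPM with vehicle, 2.31-fold lower with TGF-beta1 (1.96 to 2.74). The coactivator gene Ppargc1a, named after its values were seen, was 4.01-fold lower (2.10 to 8.29), at under 3 CPM in every library. The abundant Fads2 (461.8, 438.5 and 449.3 CPM with Osm, TGF-beta1 and vehicle) and Cpt1a stayed within 2-fold. With Osm the median was -0.03.

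**Figure D4:**
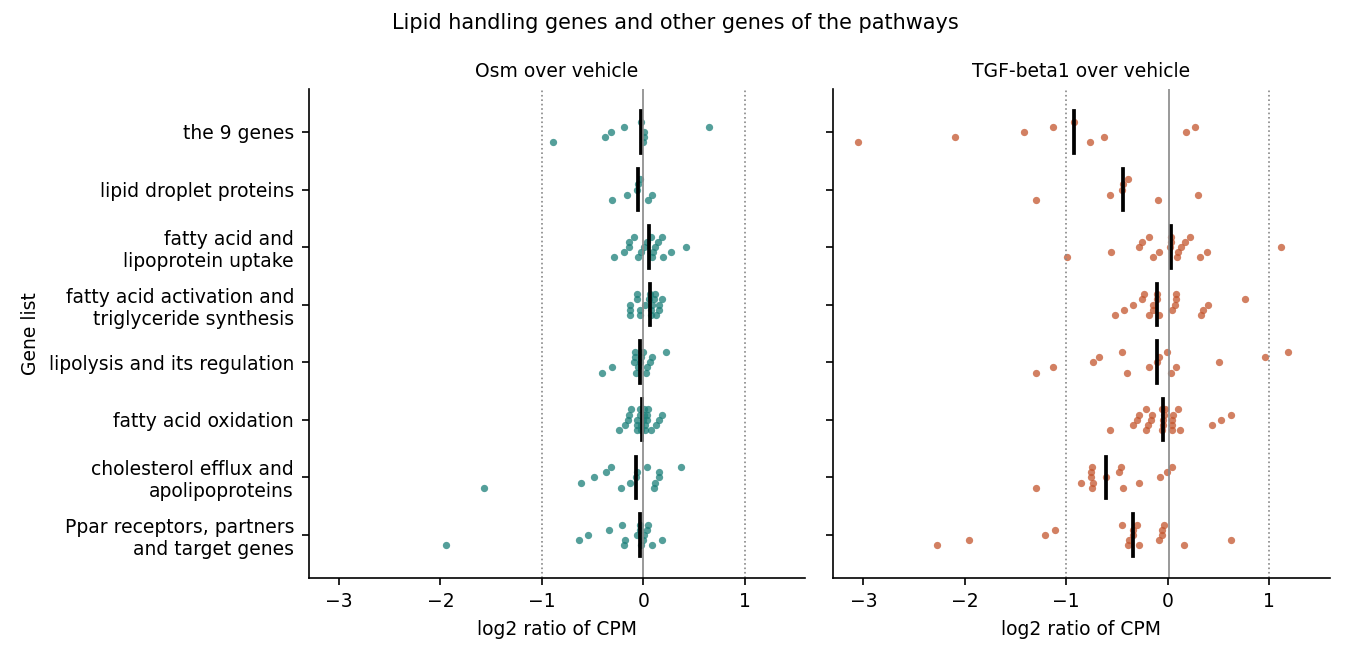
The log2 ratios of CPM to vehicle for the 9 genes and for the tested genes of 7 other lists, Osm at left and TGF-beta1 at right. Each point is a gene, black bars are list medians, the solid grey line is the median of all genes tested and dotted lines mark 2-fold. With TGF-beta1 the medians of the 9 genes (-0.93) and of every list but uptake (0.03) lie left of the grey line. Among the lists, cholesterol efflux (-0.60) and droplet proteins (-0.44) lie furthest left. With Osm all medians lie near the grey line.

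The genes most like the 4 that passed the rule were looked for among 9107 other protein-coding genes that reached 10 CPM, by the distance between log2 CPM values centred over the 3 libraries. Nearest to Lpl was Aoc3, an amine oxidase gene, at 216.8, 84.6 and 223.2 CPM with Osm, TGF-beta1 and vehicle (distance 0.029), followed by Tcp11l2 and Ifi27l2a. Nearest to Apoe was the gamma-glutamyltransferase gene Ggt5, at 40.6, 11.2 and 47.3 CPM (distance 0.036), followed by Ly6c1 and Selenbp1, which share 36.7% and 52.3% of their windows with other genes and are uncertain. Nearest to Plin4 was Hpca, at 9.28, 1.30 and 10.1 CPM (distance 0.148), which Tmem54 overlaps, followed by Prl2c2, with 89.5% of its windows shared and uncertain, and Ppl. Nearest to Cd36 were Agtr1a, Mcee and Ogn, at distances of 0.216 to 0.2197. With 3 libraries many genes lie close to any pattern, so the likeness is a description only.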

How the data were processed

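RNA sequencing libraries of 3 cultures were analysed, grouped by their titles as Osm, TGF-beta1 and vehicle. Per the labels' protocols, RNA was poly-A selected and copied with random primers; both a strand-specific and a non strand-specific library are described, without saying which was made. The authors deposited whole-number counts per gene and, in another table, FPKM per gene. Build mm39 and the tools HISAT2, HISAT, TopHat2 and CASAVA come from the submitters' processing notes; no source used here names the counter, annotation or filters.

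Counts were scaled to CPM with TMM factors from edgeR 4.0.16 in R 4.3.3. Genes with at least 1 CPM in a library were tested (13712). Ratios used a prior count of 0.5 on the log2 scale, and intervals of count ratios were exact 95% conditional binomial (Clopper-Pearson) intervals. They hold counting error alone, and no molecular identifiers are described. For genes with no count the floor was set at 3 counts. With 1 library per group there was no test. Deposited FPKM served for levels between genes. Scripts ran in Python 3.11.15 (scipy 1.17.1, numpy 2.4.6, matplotlib 3.10.9, pandas 2.3.3), and DESeq2 1.42.0 for other size factors. The interval procedure was checked on simulated counts with counting error only, the error that it assumes. That check cannot speak to variation between cultures.

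All 9 members were named. From each pathway list and comparison with vehicle, the genes eligible for naming were the 2 with the largest size of log2 ratio at 5 CPM or more and the 2 with the highest mean CPM; genes named outside this rule for their values are marked. Fabp5, single cell type markers and genes with few or no counts were also named outside it. Some genes of the lists are not reported here by name. The members and lists were chosen with earlier results of these data known. Positions are the deposited ones (mm39); RefSeq promoters are of GRCm38.p6, and shared windows and exon overlap come from GENCODE M21 transcripts. Alternatives tried were other scalings, prior count, unit, filters and fold.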

Additional observations from a re-analysis of the deposited data

How the results depend on the processing

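The log2 ratios of the 9 genes were recomputed with DESeq2 size factors, library totals alone, a prior count of 2 or the authors' FPKM. That gave 108 alternative values over the genes, comparisons and settings. All stayed within the counting interval of the reported value, with a largest shift of 0.033. The scalings could shift a ratio little, because the TMM factors lay between 0.9945 (TGF-beta1) and 1.0035 (vehicle). After scaling, the Osm library total was 17353650 by TMM and 17416090 by DESeq2. The authors' FPKM implied the same total as DESeq2, 17416090, and so held nearly the same scaling. Ratios by FPKM thus largely repeat those by DESeq2 size factors. Only Plin2 and Pnpla2, at Osm ratios of 1.00, changed sign. The counts of members past the 2-fold rule were the same under these settings and without a filter; a filter of 10 CPM in any library removed Cd36 and left 3 lower with TGF-beta1. With 1.5-fold in place of 2-fold, Osm over vehicle gave 1 member higher and 1 lower in place of 0 and 0, TGF-beta1 over vehicle gave 7 lower in place of 4, and Osm over TGF-beta1 gave 5 higher in place of 3. Without Plin4, an alternative added after seeing the data, 3 were lower with TGF-beta1. Over all genes tested, the Osm over vehicle counts of 130 higher and 89 lower became 237 and 231 without a filter, 7 and 7 at 10 CPM and 288 and 228 at 1.5-fold. The TGF-beta1 counts of 311 and 657 became 93 and 228 at 10 CPM, and 824 and 1307 at 1.5-fold. Those of Osm over TGF-beta1, 695 and 332, became 225 and 107, and 1361 and 845. No paired analysis was possible because each group has 1 library, and no library could be left out. Cd36, with 34 to 75 counts, is the member that depth limits most.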

Other observations

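Several other apolipoprotein genes were at or near 0 in these libraries, unlike Apod and Apol6. Apoc1 had 3 counts with Osm, 3 with TGF-beta1 and 8 with vehicle, and Apoc2, Apoc4, Apoc3 and Apob had none in any library, against 6060, 1713 and 7315 counts of Apoe. Within the droplet coat family the libraries held Plin2, Plin3 and Plin4, with no count of Plin1 or Plin5. Cidec, which fuses droplets in adipocytes, had 0, 1 and 0 counts, and Cidea 0, 1 and 2, in the Osm, TGF-beta1 and vehicle libraries. Adiponectin (Adipoq) had 5, 0 and 5 counts.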
